A study of Capra hircus with 3 samples.

Results

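The genes described here move zinc, iron and copper in the lactating goat mammary gland. They are 10 genes named by symbol, SLC30A2, SLC30A4, SLC39A8 and SLC39A14 for zinc, TF, TFRC, SLC40A1 and FTH1 for iron, and ATP7A and ATP7B for copper, and they were found among the deposited loci by their goat NCBI gene ID. Of the 10 genes, 8 had deposited values, out of 13023 protein-coding genes in all. TF, the carrier of iron in plasma and milk, was not listed by that symbol in the gene table used, and FTH1, the heavy chain of ferritin, had a gene ID without a deposited value, so both were not analysed here.

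Mammary tissue was taken surgically from 5 healthy adult Laoshan dairy goats in the third lactation, at 10 days (early), 90 days (peak) and 210 days (late) after parturition. None of the groups received an experimental treatment in these labels, and the goats were kept with free feed and water. The RNA of the 5 goats was mixed into 1 library per stage, so a stage has no replicate, no spread can be given and no p-value was computed. Levels are the FPKM that the authors deposited, read fragments scaled to the length of the transcript and to the mapped reads of the library, and a difference is given as the ratio of FPKM or its log2. A gene was counted as different when the ratio was at least 2-fold, a log2 ratio of at least 1 in size. The paper gives the clean reads of each library, but the deposited values hold no read number per locus, so no interval is given.

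Milk supplies the newborn with trace metals that are needed by many enzymes and are toxic when free, so the secretory cell takes them up from blood, binds them and passes them into milk. Zinc is moved into the cytosol by the SLC39 (ZIP) family, and out of the cytosol, into vesicles or out of the cell, by the SLC30 (ZnT) family. Iron bound to transferrin is taken up by the transferrin receptor, stored in ferritin and released by ferroportin, and copper is pumped into the secretory pathway or out of the cell by the ATPases ATP7A and ATP7B. Mutations in the SLC30A2, SLC30A4 and ATP7B genes are known for milk that lacks metal in women or mice.

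Before the results, the labels need a caution. Of 148 lncRNA genes matched by accession to the supplementary lncRNA table for peak against late lactation, 20 had the same direction in the deposited columns taken by their labels, and 128 had it when the columns labelled peak and late were exchanged. For late against early lactation the numbers were 58 and 117 of 135 genes, and for peak against early lactation, where the readings were hardly apart, 36 and 43 of 67 genes. Libraries are therefore called by their labels below, and with the columns exchanged each value given for the peak library would belong to the late one and the reverse. Of the markers of secretory epithelium, 10 of 12 had values, and CSN3, a casein, reached 25446 FPKM in the early library, 3989 FPKM in the peak library and 27391 FPKM in the late library. LALBA, alpha-lactalbumin, was listed at 0 in the late library and at 70053 FPKM in the early one, so a listed 0 is not read as absence here.

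All 4 zinc transporters were lowest in the library labelled peak, and each was at least 2-fold lower there than in the early library. SLC30A2, which loads zinc into secretory vesicles of the mammary epithelium, had 41.0 FPKM in the early library, 8.50 FPKM in the peak library and 26.9 FPKM in the late library. The peak level was 4.82-fold below the early one, a log2 ratio of -2.27, and 1.02% of protein-coding genes had a lower ratio. The late level lay between the others, with log2 ratios of -0.61 over early and 1.66 over peak. SLC30A2 thus passed from 92.4% of protein-coding genes below it in the early library to 56.2% in the peak library and 86.6% in the late library. SLC30A4, the vesicular zinc exporter that is mutated in the lethal milk mouse, had 82.7, 21.9 and 79.8 FPKM in the early, peak and late libraries. Its early and late levels were nearly the same, a log2 ratio of -0.05, and the peak level was 3.77-fold below the early one, a log2 ratio of -1.92. SLC30A4 was the more abundant of these exporters in each library, at 2.02 times the FPKM of SLC30A2 in early, 2.58 times in peak and 2.97 times in late.

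The importers among the 10 genes also had their lowest value in the peak library. SLC39A8, or ZIP8, which carries zinc, iron and manganese across the cell membrane, was the most abundant of the 8 genes in every library, with 199.8, 74.2 and 269.9 FPKM in early, peak and late. Its log2 ratio was -1.43 for peak over early, 1.86 for late over peak and 0.43 for late over early, so it was highest in the late library. SLC39A14, or ZIP14, a related importer of zinc, iron and manganese, had 36.6, 13.2 and 31.1 FPKM. Its log2 ratios were -1.48 for peak over early, 1.24 for late over peak and -0.23 for late over early. The level of SLC39A8 was 5.46 times that of SLC39A14 in the early library, 5.64 times in the peak library and 8.68 times in the late library.

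**Figure D1:**
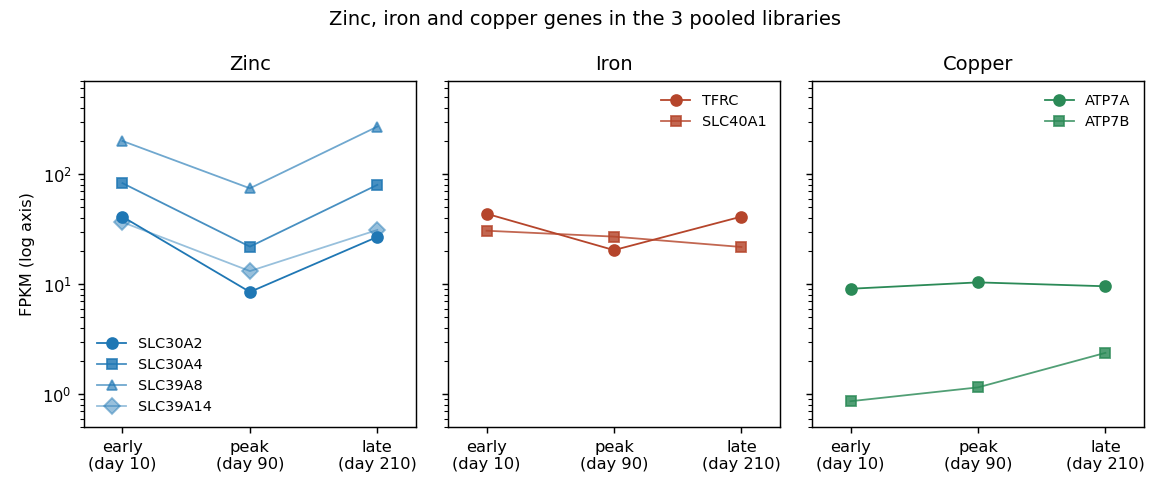
FPKM (log axis) of the 8 measured genes in the early, peak and late libraries as labelled, 1 pooled library per stage, with a point for each library and a line for each gene, grouped by metal. The 4 zinc genes and TFRC dip in the peak library, SLC40A1 and ATP7A stay within 1.40-fold and 1.14-fold over the 3 libraries, and ATP7B is highest in late, at 2.38 FPKM.

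Of the iron genes, TFRC and SLC40A1 differed in shape. TFRC, the transferrin receptor that brings iron into the cell, had 43.7 FPKM in the early library, 20.4 FPKM in the peak library and 41.1 FPKM in the late library. The peak level was 2.14-fold below the early one, a log2 ratio of -1.10, and the log2 ratio of late over peak was 1.01. These lie close to the 2-fold limit, and after rescaling the libraries without their 100 most abundant loci, which moved each log2 ratio of peak over early by 0.17 and of late over peak by -0.17, they were -0.92 and 0.84. SLC40A1, or ferroportin, the iron exporter, had 30.6, 27.0 and 21.8 FPKM in early, peak and late, and no ratio between libraries reached 2-fold. Its log2 ratios were -0.18 for peak over early, -0.31 for late over peak and -0.49 for late over early. TFRC was above SLC40A1 in the early library, at 1.43 times its FPKM, below it in the peak library, at 0.754 times, and above it in the late library, at 1.89 times.

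The copper ATPases were the least abundant genes in the early and late libraries. ATP7A, the copper pump of most tissues, had 9.08, 10.4 and 9.57 FPKM in early, peak and late, with log2 ratios between -0.12 and 0.19. ATP7B, the copper pump known from liver and from the toxic milk mouse, had 0.865 FPKM in early, 1.15 FPKM in peak and 2.38 FPKM in late. Its late level was 2.75-fold above the early one, a log2 ratio of 1.46, and 98.9% of protein-coding genes had a lower ratio. At these low levels the precision is unknown, and with 1 FPKM added to both values the log2 ratio was 0.86. The log2 ratio of ATP7B was 0.42 for peak over early and 1.04 for late over peak, and the latter was 0.98 with 0.1 FPKM added. ATP7A had 10.5 times the FPKM of ATP7B in early, 8.99 times in peak and 4.03 times in late.

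Set against all protein-coding genes, the 8 genes stood mostly to one side in the comparisons with the peak library. The genes were chosen with earlier results of these data known, so the shares below describe them and do not test them as a group. Between early and peak, 5 of 8 were at least 2-fold lower in peak (4 after the rescaling) and 0 higher. Of 13020 protein-coding genes, 6.80% were lower and 10.9% higher. The median log2 ratio of the 8 genes was -1.26, and that of the protein-coding genes was 0.01. Between peak and late, 6 of 8 were at least 2-fold higher in late (4 after the rescaling) and 0 lower, where 8.56% of 13015 genes were higher and 17.4% lower, with medians of 1.14 and -0.03. Both comparisons use the peak library, so the second count is not a further observation of the first. Between early and late, ATP7B was at least 2-fold higher in late and the other 7 genes were not 2-fold apart, where 1.97% of 13004 genes were higher and 6.74% lower. The median was -0.07 for the 8 genes and -0.03 for the protein-coding genes.

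**Figure D2:**
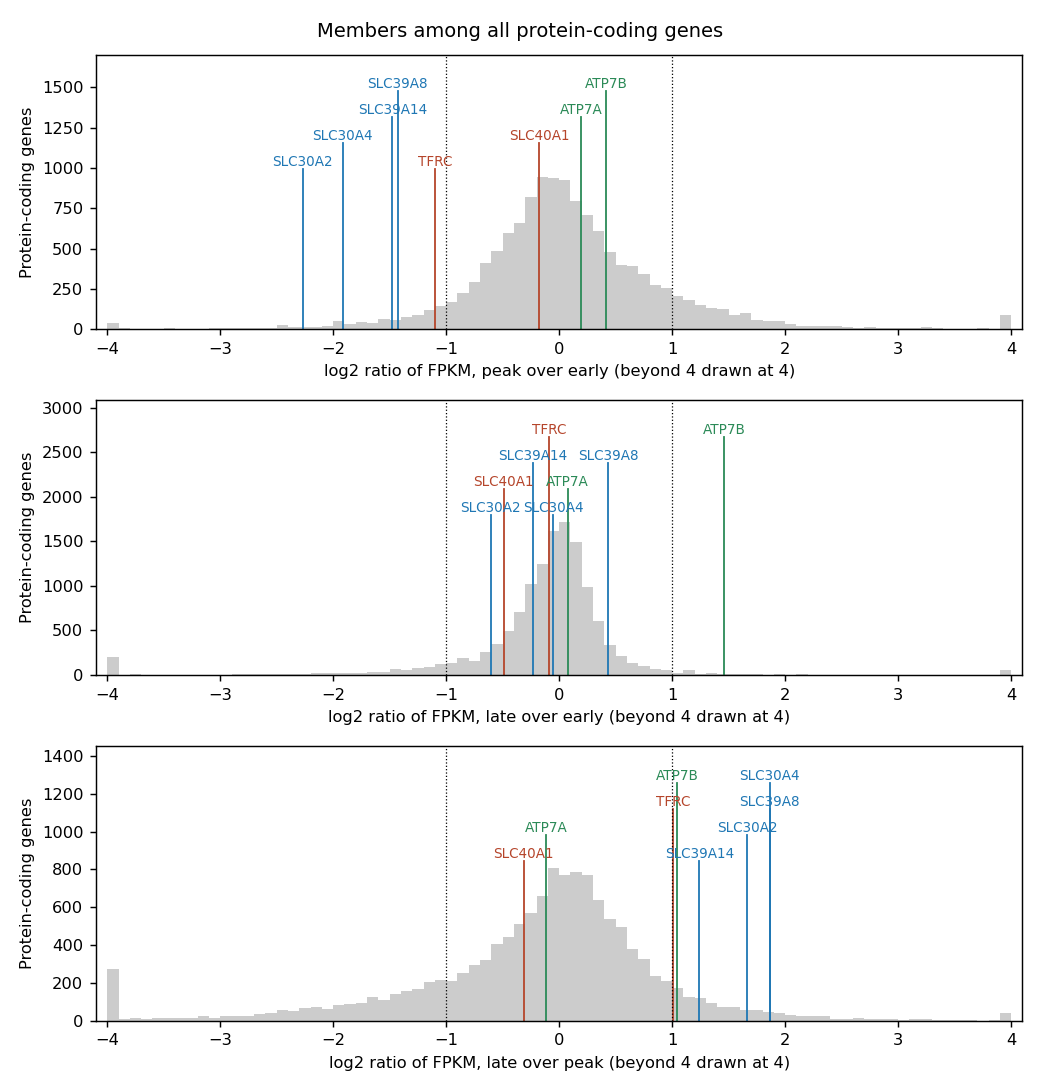
Histograms of the log2 ratio of FPKM of protein-coding genes (grey, number of genes) for peak over early, late over early and late over peak, with a labelled line for each of the 8 measured genes, whose heights carry no meaning, and dotted lines at 2-fold. In peak over early, SLC30A2, SLC30A4, SLC39A14, SLC39A8 and TFRC lie below the lower dotted line, at -2.27 to -1.10, and in late over early ATP7B alone lies beyond a dotted line.

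Markers of the milk-producing cells were low in the peak library too. Of the 10 measured markers of secretory epithelium, 8 were at least 2-fold lower in the peak library than in the early one, and their summed level was 216991 FPKM in early, 62525 FPKM in peak and 164171 FPKM in late. Without LALBA, which was listed at 0 in late, the sums were 146938, 47311 and 164171 FPKM, a log2 ratio of -1.63 for peak over early and 1.79 for late over peak. ELF5, a transcription factor of the secretory lineage, had 879, 244 and 875 FPKM, and XDH, a milk fat globule protein, had 1558, 509 and 2148 FPKM. The 2 keratins of luminal cells on the same list, KRT8 and KRT18, had their highest level in the peak library, at 196 and 32.0 FPKM against 126 and 21.0 FPKM in early. In whole tissue, fewer cells of a type and less RNA per cell cannot be told apart. The log2 ratios of peak over early ran from -2.67 to 0.64 over the secretory markers, with a median of -1.57. That range is wide and held all 8 metal genes, which ran from -2.27 to 0.42, so lying within it sets none of them apart. The part of these markers in the levels of the zinc genes and TFRC was not tested.

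Markers of other cells had patterns that differed between lists, and those of adipocytes were also low in the peak library. Macrophage markers, with 5 of 8 measured and none at 0, summed to 62.8 FPKM in early, 80.3 FPKM in peak and 38.2 FPKM in late. SLC40A1, which macrophages express, was also lowest in late. It had 30.6 FPKM in early and 27.0 FPKM in peak, a log2 ratio of -0.18. After rescaling without the 100 most abundant loci this ratio was -0.004, so its direction is not settled. From early to peak, 4 of the 5 macrophage markers rose, and MSR1 fell, with 9.95, 6.64 and 6.45 FPKM in early, peak and late. Lymphocyte and plasma cell markers, with 8 of 8 measured and CD3E at 0 in early and peak, summed to 295, 515 and 354 FPKM, of which JCHAIN, a plasma cell gene, made up 266, 429 and 337 FPKM. Over the 7 of these genes above 0 in every library, the median log2 ratio of late over early was -1.12, opposite to the sums. Adipocyte markers, with 4 of 6 measured, summed to 21.2, 7.82 and 10.5 FPKM, and ADIPOQ made up 15.1 FPKM of this in early. All 4 were lower in peak than in early, with log2 ratios from -1.88 to -0.61, and 2 of them had at least 1 FPKM in both. From peak to late, ADIPOQ and LIPE rose, with log2 ratios of 0.47 and 1.07, and PLIN1 and CIDEC fell, with -0.84 and -1.89. Neutrophil markers, with 4 of 6 measured and S100A8 at 0 in late, summed to 13.0, 24.9 and 5.30 FPKM. The log2 ratios of peak over early were 0.70 for S100A8, 1.51 for S100A9, 0.11 for CXCR2 and -0.02 for CSF3R. CSF3R was highest in late, at 2.70 FPKM, where the neutrophil sum was lowest. The sums of myoepithelial (8 of 8), endothelial (5 of 6) and fibroblast (6 of 6) markers ranged from 442 to 463, from 111 to 135 and from 542 to 664 FPKM, none of these with a gene at 0. Within these lists members differed in direction for peak over early, with log2 ratios of -1.07 for COL1A2, -1.06 for COL3A1 and 1.03 for PDGFRA among fibroblast markers and -1.74 for OXTR among myoepithelial markers. The erythroid markers listed, of 7 genes, had 0 with deposited values, so red cell precursors, which use TFRC, were not examined. The part of these cells in the metal genes was not tested.

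**Figure D3:**
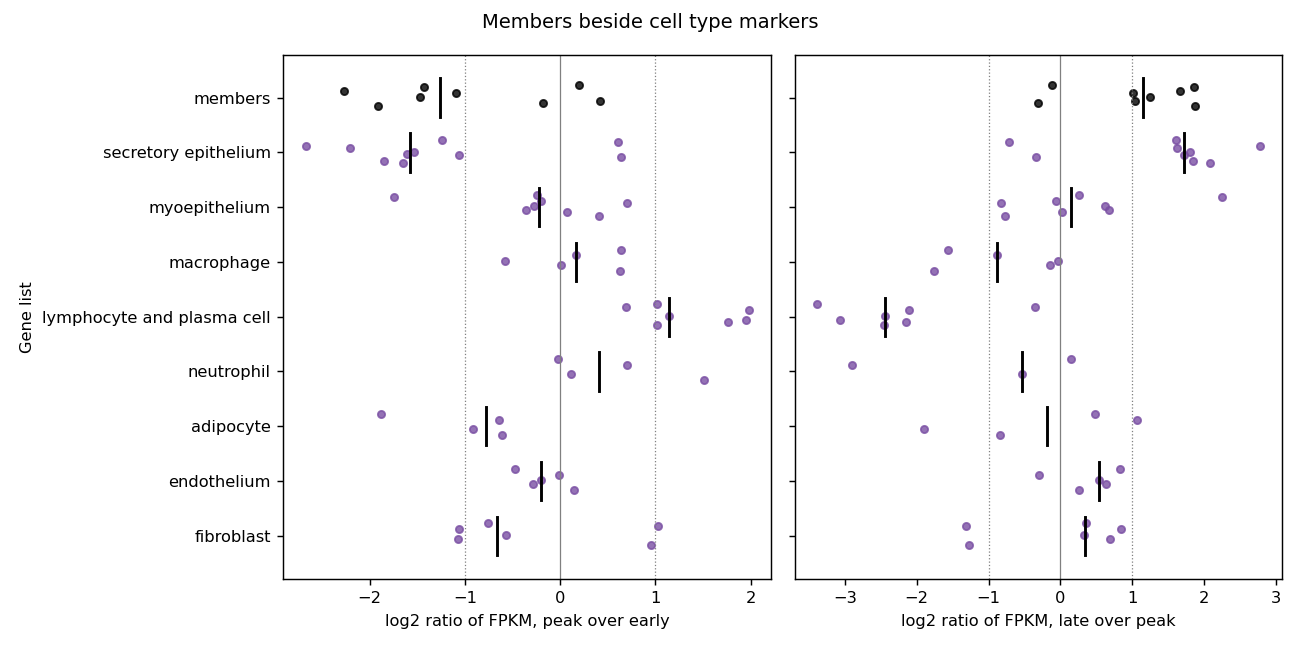
Log2 ratio of FPKM for peak over early (left) and late over peak (right), with a point for each gene above 0 in both libraries, a black bar at the median of each list and dotted lines at 2-fold. In peak over early, 5 of the 8 metal genes (top row) and 8 of the 10 secretory markers lie left of the lower dotted line, while ATP7A and ATP7B lie to the right of 0, at 0.19 and 0.42, and KRT8 and KRT18 do too, at 0.64 and 0.61.

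Other genes of the same metals were read from lists by role, 86 genes of which 60 had values. Between early and peak, 5 of the 60 were at least 2-fold higher and 7 lower in peak (7 and 6 after rescaling without the 100 most abundant loci), against the 10.9% and 6.80% of protein-coding genes given above, and their median log2 ratio was -0.17. Between early and late, 0 were higher and 7 lower in late (1 and 7 after rescaling), against 1.97% and 6.74%, with a median of -0.09. Between peak and late, 8 were higher and 11 lower in late (6 and 11 after rescaling), against 8.56% and 17.4%, with a median of 0.06. These counts are not far from those shares, and nothing is read from them about metal genes as a group. The lowest value was in the peak library for 28 genes, in late for 27 and in early for 5.

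Of the other zinc exporters, 5 of 8 had values, and between early and peak 0 were 2-fold apart. SLC30A1, the exporter of the cell surface, had 6.08, 10.3 and 4.15 FPKM in early, peak and late, and was thus highest where SLC30A2 and SLC30A4 were lowest, with a log2 ratio of late over peak of -1.32. SLC30A5, SLC30A6, SLC30A7 and SLC30A9, which serve the secretory pathway and other organelles, had log2 ratios of peak over early from -0.58 to -0.18. Of the other importers, 11 of 12 had values, and 3 were at least 2-fold lower in peak than in early. SLC39A7, which releases zinc from the endoplasmic reticulum, had 26.4, 13.1 and 26.4 FPKM in early, peak and late, log2 ratios of -1.01 and 1.01 that stand at the limit. SLC39A9 had 32.7, 16.5 and 39.7 FPKM, a log2 ratio of 1.26 for late over peak. The other importers at least 2-fold lower in peak than in early, SLC39A2 and SLC39A12, stayed below 1 FPKM in each library. SLC39A2 was listed at 0 in late. SLC39A1, an importer of the cell surface, was within 2-fold, with 40.9, 40.5 and 33.5 FPKM. Of the genes that buffer or sense zinc, 5 of 10 had values. MTF1, the transcription factor that responds to zinc, was within 2-fold, with 3.98, 3.72 and 4.55 FPKM. The genes of this list that were 2-fold apart, GPR39, TMEM163 and MT3, had at most 2.45 FPKM in a library, and MT3 was listed at 0 in late. The symbols MT1A, MT1E, MT1X and MT2A of the main metallothioneins were not found in the gene table.

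Among the iron genes, LTF, lactoferrin, an iron-binding milk protein also made by neutrophils, had 1074 FPKM in early, 556 FPKM in peak and 75.3 FPKM in late. Its late level was far below both others, with log2 ratios of -3.83 over early and -2.89 over peak, while the 4 zinc transporters were within 2-fold of their early level there. LCN2, which binds bacterial iron carriers, had 39.9, 15.7 and 35.1 FPKM, and MELTF, melanotransferrin, a membrane protein related to transferrin, had 43.7, 16.3 and 52.8 FPKM. These had the dip of the zinc genes, with log2 ratios of peak over early of -1.35 and -1.42. STEAP4, a metalloreductase, was highest in the peak library, with 17.4, 40.0 and 12.2 FPKM and log2 ratios of 1.20 for peak over early and -1.72 for late over peak. Of the iron uptake and reduction list, 7 of 12 genes had values, and between early and peak 2 were lower and 1 was higher in peak.

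Of the genes of iron storage, haem and export, 10 of 13 had values, and 2 were at least 2-fold higher and 0 lower in peak than in early. FTL, the ferritin light chain, had 44.0, 31.9 and 21.3 FPKM in early, peak and late, a log2 ratio of -1.04 for late over early, from a locus spanning 626 nt, and reads of ferritin copies elsewhere could not be told apart from it here. NCOA4, which delivers ferritin for breakdown, had 53.5, 28.8 and 45.5 FPKM. HMOX1, the inducible haem oxygenase, had 4.32, 7.75 and 2.71 FPKM, a log2 ratio of -1.52 for late over peak. The sum of the macrophage markers had the same order of libraries, but MSR1 among them did not, with 9.95, 6.64 and 6.45 FPKM. A link between them was not tested. CP and HEPHL1, multicopper ferroxidases, were the genes at least 2-fold higher in peak than in early. CP, summed over 2 entries, had 0.986, 3.47 and 0.358 FPKM. HEPHL1 stayed below 1 FPKM in each library, with 0.373, 0.902 and 0.146 FPKM. ACO1, the cytosolic aconitase that binds ferritin and transferrin receptor mRNA when iron is scarce, had 80.3, 32.2 and 93.8 FPKM, with log2 ratios of -1.32 for peak over early and 1.54 for late over peak. IREB2, its partner in that role, had 13.2, 10.1 and 14.5 FPKM and was within 2-fold, as were the other 3 measured genes of iron sensing, among 5 of 9 with values. All 8 genes of mitochondrial iron and iron-sulphur assembly were within 2-fold in each comparison, with a median log2 ratio of -0.19 for peak over early.

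Of the copper uptake genes, chaperones and enzymes, 9 of 14 had values. SLC31A1, the copper importer of the cell surface, had 31.7, 13.1 and 36.2 FPKM in early, peak and late, with log2 ratios of -1.28 for peak over early and 1.47 for late over peak. It thus dipped in the peak library, where ATP7A did not. ATOX1, the chaperone that hands copper to ATP7A and ATP7B, had 68.8, 41.7 and 110 FPKM, a log2 ratio of 1.39 for late over peak, and was highest in the late library as ATP7B was. SLC31A2, a second copper transporter, had 9.96, 10.6 and 19.9 FPKM, a ratio of 1.99 for late over early that falls just short of the limit. LOX, a copper enzyme that crosslinks collagen, had 7.76, 10.5 and 4.61 FPKM, a log2 ratio of -1.19 for late over peak. SOD1, the copper and zinc superoxide dismutase, was the most abundant of the list, with 235, 129 and 255 FPKM, and was within 2-fold in each comparison.

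**Figure D4:**
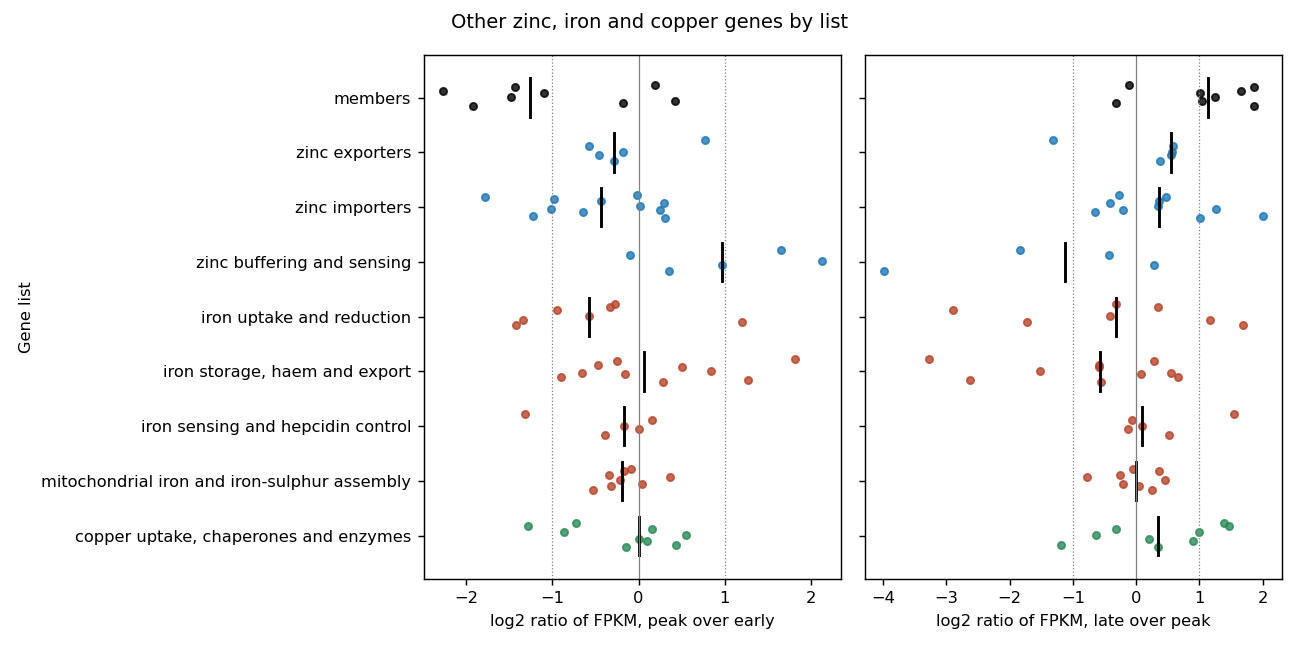
Log2 ratio of FPKM for peak over early (left) and late over peak (right) for the 8 measured genes (black) and the other zinc (blue), iron (red) and copper (green) genes by list, with a point for each gene above 0 in both libraries, a black bar at each median and dotted lines at 2-fold. The 8 genes have a median of -1.26 in peak over early, and the medians of the zinc exporter and importer lists are -0.29 and -0.43.

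Each of the 8 genes had 1 deposited locus. SLC30A2 was listed on scaffold NW_005100623.1 from 28857782 to 28865218, SLC30A4 on NW_005100763.1 from 24458923 to 24485024, SLC39A8 on NW_005100693.1 from 607749 to 690797 and SLC39A14 on NW_005100741.1 from 4143728 to 4166170, and although the methods name a goat reference genome, the files do not say which build these scaffolds belong to. Within 5000 nt of these loci and of ATP7A lay 8 assembled loci without a gene ID, none of them near TFRC, SLC40A1 or ATP7B. Of these, 6 were at least 2-fold lower in peak than in early and 0 higher, where 18.7% of 34726 unannotated loci were lower and 23.2% higher. The 7 loci near zinc genes had log2 ratios of peak over early from -2.18 to -0.70. The locus XLOC_012211, 217 nt from SLC39A8, had 0.843, 0.281 and 0.768 FPKM in early, peak and late, and XLOC_021303, 4393 nt from SLC30A4, had 4.55, 1.41 and 4.38 FPKM. The locus near ATP7A, XLOC_051449, had 4.70, 5.11 and 2.42 FPKM and no dip in peak. Whether such loci are parts of the transcripts beside them was not tested. On the other side of SLC30A2, 1014 nt away, lies EXTL1, a glycosyltransferase gene with a pair of entries at the same coordinates, at 0.805, 1.36 and 0.687 FPKM in one entry and 5.52, 0.294 and 3.75 FPKM in the other, and the second had the order of libraries of SLC30A2.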

How the data were processed

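The authors mapped the reads with TopHat2 2.0.9 and assembled and merged transcripts with Cufflinks 2.1.1 and Cuffmerge. Transcripts of rRNA, tRNA, other small RNA classes and pseudogenes were recognised with Bowtie2 and removed. The authors quantified transcripts with Cuffdiff and deposited FPKM for 50041 loci in 1 column per library. Of the values with 7 digits, 95.7%, 99.3% and 97.3% end in 5 in the early, peak and late libraries. What was averaged or rounded is not given in the sources used here. Columns were assigned by the sample labels. Loci with a single NCBI gene ID (15274) were matched to symbols through an ARS1.2 gene table and summed per ID. Ratios were taken from FPKM with 0 set to 0.001. FPKM do not allow a count test, and without replicates no other test was made. Of the 96 genes listed for metals, 13 had an ID without a value and 15 no such symbol in the table. The members and lists were chosen with earlier results of these data known. The 10 genes were all to be named, with those of the lists that were at least 2-fold apart at 1 FPKM or more in both libraries. Other genes were named after their values were seen, and so were the loci within 5000 nt. Alternatives were other folds, pseudocounts, a filter, single loci, 2 scalings and the exchange of the peak and late columns. Python 3.11.15, numpy 2.4.6, pandas 2.3.3 and matplotlib 3.10.9 were used.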

Additional observations from a re-analysis of the deposited data

How the results depend on the processing

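With 1 library per stage no replicate could be left out. No paired analysis was possible because the labels give a single library for each of the stages. At 4-fold, the 8 genes that differed numbered 1 for peak over early, 0 for late over early and 0 for late over peak, and the 60 other metal genes 1, 3 and 7. At 1.5-fold, 2 of the 8 differed for late over early, and 22 and 14 of the 60 for peak and late over early. With 1 added to both FPKM, 0 of the 8 differed for late over early, and 6 and 2 of the 60 for peak and late over early. With at least 1 FPKM in both libraries these numbers were 0, 6 and 2, and 12 of the 60 differed for late over peak. These settings move counts by construction.

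Exchanging the columns labelled peak and late gave 1 of the 8 for peak over early and 5 for late over early, and 7 and 12 of the 60. It turned the log2 ratio of SLC39A8, peak over early, to 0.43 and the log2 ratios of late over peak to -1.66 for SLC30A2, -1.87 for SLC30A4, -1.86 for SLC39A8, -1.24 for SLC39A14, -1.01 for TFRC and -1.04 for ATP7B. Apart from the exchange, 0 of 142 recomputed ratios of the 8 genes changed sign and 8 crossed 2-fold, each of them for TFRC or ATP7B. Of the 142, those of single loci (24) and of the filter (22) could not differ from the main ratios. Adding to both FPKM cannot change a sign, so only the 2 scalings could have changed one. Depth per locus is unknown, which limits ATP7B and other genes near 1 FPKM most.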
